A study of Mus musculus with 6 samples.

Results

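Rspo3 and 9 genes of the Wnt signal that patterns the liver lobule were followed in liver RNA of F1 males. The 10 members were the ligand-side genes Rspo3, Wnt2 and Wnt9b, the receptor genes Lgr4 and Lgr5, the ubiquitin ligase genes Rnf43 and Znrf3, and the target genes Axin2, Tbx3 and Nkd1. They were taken by gene symbol from the 53715 genes of the table, and all 10 were found. The set was put together because Rspo3 differed between the groups in these same libraries, so the differences between groups given for members are descriptions of these libraries and support nothing further.

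The 6 libraries came from livers of 8-week-old F1 males of the outbred ICR mouse stock, with 3 control F1 and 3 FR F1 libraries. The labels describe the stress of the FR F1 group as famine of the father, whereas the series title speaks of an overdiet, and FR itself is not spelled out. Set side by side, the groups ask how a father's diet relates to liver RNA of his sons. The labels name no allele, transgene or agent given to the F1 mice themselves, and do not say whether each library is a separate animal, so the p-values measure the spread between these samples only.

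In the liver lobule, hepatocytes beside the central vein carry a different programme from those beside the portal vein. Endothelial cells of the central vein secrete WNT2 and WNT9B, and R-spondin 3 amplifies the signal. Wnt proteins bind Frizzled and LRP receptors and keep beta-catenin from being destroyed. RNF43 and ZNRF3 remove those receptors from the cell surface, and an R-spondin bound to LGR4 or LGR5 takes these ligases away. Axin2, Nkd1, Lgr5, Rnf43, Znrf3 and Tbx3 are known targets of beta-catenin, several of which feed back to dampen the signal.

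Of the members, 6 had windows before a RefSeq transcription start in the promoter table used here (GRCm38.p6), with 7 windows in all. The 250 bases before the start are printed for a ligand, a receptor and a target gene whose RefSeq and GENCODE starts coincide, to show what lies before genes read out below. They are written 5′ to 3′ on the gene's strand, with each match to the GC box GGGCGG, on either strand, in capitals. They lie at chr11:103749822-103750071 on the minus strand for Wnt9b, chr2:109917397-109917646 on the plus strand for Lgr4 and chr11:108920099-108920348 on the plus strand for Axin2.
Wnt9b: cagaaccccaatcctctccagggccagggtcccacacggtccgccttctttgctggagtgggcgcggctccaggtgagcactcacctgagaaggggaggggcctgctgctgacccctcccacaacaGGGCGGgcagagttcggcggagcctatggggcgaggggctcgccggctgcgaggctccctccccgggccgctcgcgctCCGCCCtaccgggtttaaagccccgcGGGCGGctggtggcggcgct
Lgr4: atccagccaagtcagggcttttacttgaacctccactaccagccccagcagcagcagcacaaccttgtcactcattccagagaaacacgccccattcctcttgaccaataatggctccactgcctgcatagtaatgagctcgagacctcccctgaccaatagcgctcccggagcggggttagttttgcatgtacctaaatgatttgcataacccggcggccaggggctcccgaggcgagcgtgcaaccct
Axin2: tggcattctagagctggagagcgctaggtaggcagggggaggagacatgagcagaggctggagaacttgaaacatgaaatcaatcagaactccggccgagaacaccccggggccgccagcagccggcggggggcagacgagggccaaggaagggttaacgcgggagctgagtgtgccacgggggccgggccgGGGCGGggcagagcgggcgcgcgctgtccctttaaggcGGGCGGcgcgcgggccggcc
Wnt9b held 3 GC boxes, Axin2 2 and Lgr4 0, and 32.7% of 32851 windows of this length held at least 1. The core letters CTTTGAT bound by TCF and LEF, searched on both strands, were in 0 of the 7 members' windows and in 3.21% of all windows. The E-box CACGTG was in 0 of the 7 and in 6.02% of all.

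Library totals ran from 2279755 to 2730160 counts, and 1 count was worth 0.368 to 0.451 CPM after TMM scaling. Between replicates the coefficient of variation beyond counting error was 22.4%. Control replicate 3 stood apart by base composition. With tested genes divided into 5 equal bins by GC content, its median log2 difference from control replicate 1 was -0.80 in the bin of lowest GC and 0.28 in the bin of highest GC. Mitochondrial genes took 0.101% of its counts and 0.282% to 0.352% of the others. The difference between groups followed GC content too, with medians of 0.38 and -0.11 in the same outer bins. Values with a GC correction are therefore given beside results whose call they change or whose size they change markedly.

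Rspo3 was the member that separated the groups most clearly. Its transcripts were several-fold more abundant in FR F1 than in control F1 livers, Wnt2 was also higher at a much lower count, and Wnt9b was not. The receptors, the ligases and the target genes in hepatocytes overlapped between the groups.

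Rspo3 (ENSMUSG00000019880.10, chromosome 10, 29452416 to 29535867, mm10) encodes the secreted R-spondin 3. Control replicates 1, 2 and 3 held 9, 7 and 6 of its counts, against 69, 43 and 30 in FR replicates 1, 2 and 3. In CPM these were 3.90, 3.16 and 2.30 in control F1 and 25.8, 15.8 and 12.3 in FR F1. Every FR F1 library lay above every control F1 library, and FR replicate 1 was the highest. The means were 3.12 ± 0.801 and 17.98 ± 6.99 CPM (SD, n = 3 per group). The fitted log2 fold change was 2.52 ± 0.41 (SE), a 5.74-fold difference with a 95% interval of 3.01 to 10.9.

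Rspo3 was the 1 member called among the 8 tested (edgeR quasi-likelihood test, adjusted p under 0.05), where 0.837% of all genes tested were called, 0.392% as higher in FR F1. DESeq2 also called it, at a background of 2.75%, and limma-voom did not, at a background of 0.791%. It was picked for that call, so nothing is read from the count. The fold change was stable in size, from 2.18 to 2.74 over the 6 fits that each left out a library, while the adjusted p was under 0.05 only without control replicate 1 (0.0276). Leaving out control replicate 2 gave 0.147 and leaving out control replicate 3 gave 0.0529. Leaving out FR replicate 1 gave 0.174, FR replicate 2 gave 0.154 and FR replicate 3 gave 0.0743. With a correction for GC content the log2 fold change was 2.44 (edgeR, adjusted p = 0.0226). An antisense gene model, Gm48159, shares 404 of the 3090 exonic bases of Rspo3. It had 0 to 4 counts in control F1 and 5 to 6 in FR F1 libraries, and whether the counting used strand is unknown here.

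Wnt2 (ENSMUSG00000010797.6, chromosome 6, 17988940 to 18030585) encodes a Wnt ligand of central vein and sinusoidal endothelium. Counts were 5, 0 and 8 in control F1 and 9, 21 and 17 in FR F1 livers. In CPM that was 2.17, 0 and 3.07 against 3.37, 7.74 and 6.98. The groups did not overlap, though FR replicate 1 lay only just above control replicate 3. The count of 0 in control replicate 2 allows a level of up to 1.35 CPM, a floor of 3 counts that covers counting error only. Wnt2 was too low to be tested. In the fit with no filter on low counts its log2 fold change was 1.71 (edgeR, adjusted p = 0.0638), and with DESeq2 it was 1.77 (adjusted p = 0.344). The fit with no filter called 1251 genes in all, against 109 with the filter.

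Wnt9b (ENSMUSG00000018486.2, chromosome 11, 103727364 to 103749821) encodes the other Wnt ligand of the central vein. It had 8, 9 and 15 counts in control F1 and 9, 3 and 13 in FR F1 libraries, or 3.47, 4.06 and 5.75 against 3.37, 1.11 and 5.33 CPM. The groups overlapped. Wnt9b was not tested either, and its log2 fold change with no filter was -0.46 (edgeR, adjusted p = 0.641). With 25 to 32 counts per group, a modest difference was not detectable at this depth.

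**Figure D1:**
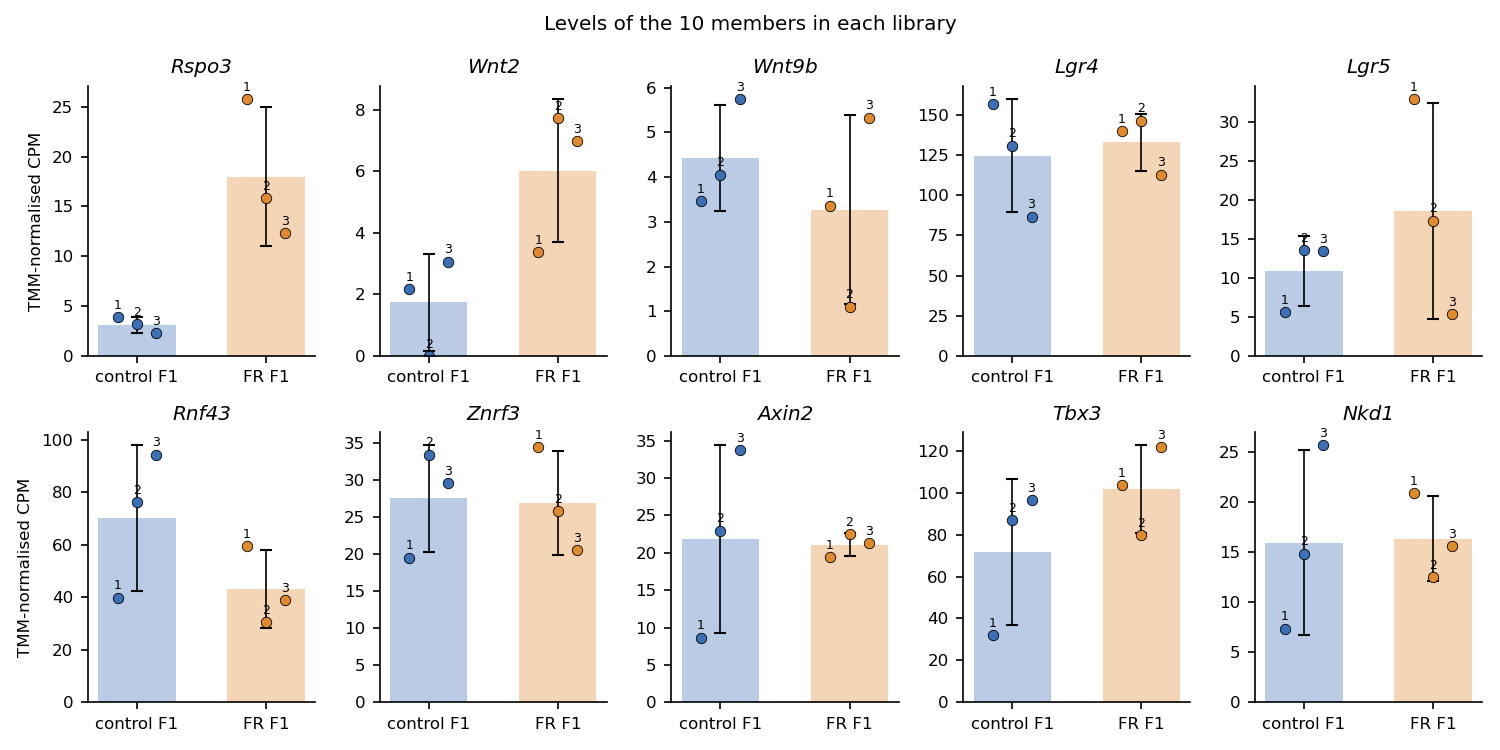
Level of each of the 10 members in TMM-normalised CPM on linear axes from 0, with points for single libraries numbered by replicate, and bars and whiskers for the mean ± SD of the 3 libraries in control F1 (blue) and FR F1 (orange). The groups are apart for Rspo3 and Wnt2 and overlap for the other 8 members.

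The receptor gene Lgr4 (ENSMUSG00000050199.13, chromosome 2, 109917647 to 110014257) is the widely expressed R-spondin receptor gene of hepatocytes. Its levels were 157, 131 and 86.7 CPM in control F1 and 140, 146 and 113 CPM in FR F1 libraries. The lowest value was that of control replicate 3, and the FR F1 libraries lay inside the control range. It had a log2 fold change of 0.10 ± 0.22, with a 95% interval of -0.42 to 0.61.

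Lgr5 (ENSMUSG00000020140.15, chromosome 10, 115450311 to 115587780), the R-spondin receptor gene restricted to pericentral hepatocytes, was far more uneven. It had 5.64, 13.5 and 13.4 CPM in the control F1 libraries and 32.9, 17.3 and 5.33 CPM in the FR F1 libraries. FR replicate 1 was the highest of all 6 and FR replicate 3 the lowest of all 6. The log2 fold change of 0.77 ± 0.61 had a 95% interval of -0.63 to 2.17, and it was 0.08 without FR replicate 1. FR replicates 1 and 3 were also the highest and the lowest FR F1 libraries for Rspo3.

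Rnf43 (ENSMUSG00000034177.15, chromosome 11, 87662722 to 87735539), a ligase gene that R-spondins oppose, leaned the other way from Rspo3. Its levels were 39.9, 76.2 and 94.4 CPM in control F1 and 59.4, 30.6 and 39.0 CPM in FR F1 libraries. Control replicates 2 and 3 lay above every FR F1 library, while control replicate 1 lay among them. The log2 fold change was -0.71 ± 0.35 (edgeR, adjusted p = 0.324), with a 95% interval of -1.51 to 0.10. Only the fit with no filter on low counts called it lower (edgeR, adjusted p = 0.0388), and that fit called 1251 genes in all, against 109 with the filter.

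Znrf3 (ENSMUSG00000041961.14, chromosome 11, 5276324 to 5444847), the paralog of Rnf43, had 19.5, 33.3 and 29.5 CPM in control F1 and 34.4, 25.8 and 20.5 CPM in FR F1 libraries. Both groups covered nearly the same range. Its log2 fold change was -0.03 ± 0.28, with a 95% interval of -0.67 to 0.62.

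Axin2 (ENSMUSG00000000142.15, chromosome 11, 108920349 to 108950783), a scaffold gene of the beta-catenin destruction complex and the standard readout of Wnt activity, had close means in the groups. Its levels were 8.67, 23.0 and 33.8 CPM in control F1 and 19.4, 22.5 and 21.3 CPM in FR F1 libraries. The FR F1 libraries were tightly grouped and all lay between the control F1 extremes. The log2 fold change was -0.05 ± 0.42, and the 95% interval of -1.03 to 0.92 leaves room for a difference of almost 1 log2 unit either way. Of its 5506 exonic bases, 209 are shared with the antisense model Gm11670, which had 2 to 13 counts a library.

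Nkd1 (ENSMUSG00000031661.12, chromosome 8, 88521354 to 88594884), whose protein binds Dishevelled and dampens the signal, had a similar spread. It had 7.37, 14.9 and 25.7 CPM in control F1 and 20.9, 12.5 and 15.6 CPM in FR F1 libraries. The FR F1 values again lay inside the control range. Its log2 fold change was 0.02 ± 0.44, with a 95% interval of -0.98 to 1.03.

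Tbx3 (ENSMUSG00000018604.18, chromosome 5, 119670669 to 119684724) encodes a T-box repressor induced by beta-catenin in pericentral hepatocytes. Its levels were 32.1, 87.0 and 96.3 CPM in control F1 and 104, 79.6 and 121 CPM in FR F1 libraries. FR replicates 1 and 3 lay above all control F1 libraries and FR replicate 2 below control replicates 2 and 3. The log2 fold change was 0.50 ± 0.37, with a 95% interval of -0.35 to 1.34, and it was 0.15 without control replicate 1. The antisense gene Tbx3os1, which shares 115 of its 6624 exonic bases, had -0.26.

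**Figure D2:**
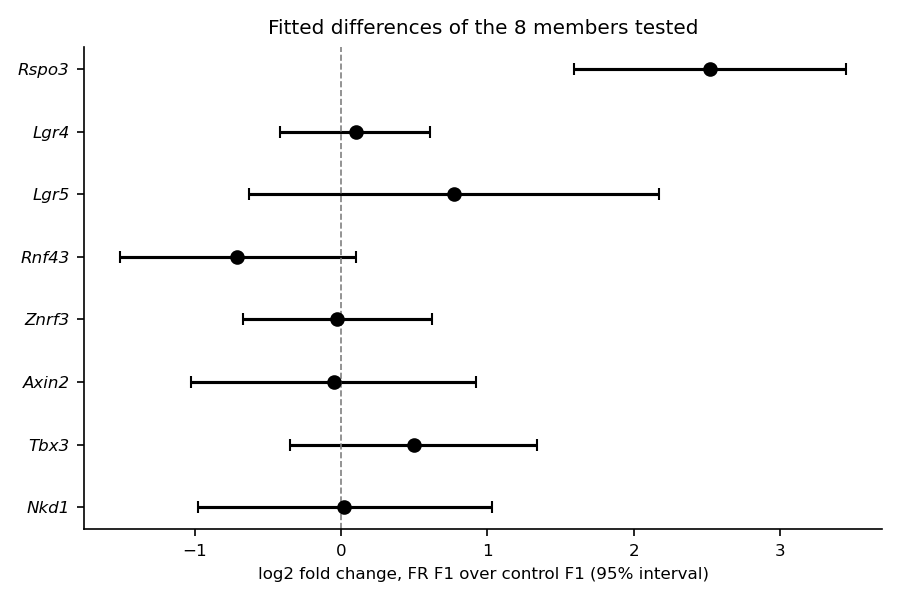
Fitted log2 fold change of the 8 members with enough counts, FR F1 over control F1, with 95% intervals from the edgeR fit over 13022 genes. The interval of Rspo3 runs from 1.59 to 3.45 and the other 7 intervals include 0.

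The 7 tested members other than Rspo3 had adjusted p from 0.324 to 0.979 (edgeR), and 0 of them had an unadjusted p under 0.05 or were called by DESeq2 or limma-voom. Of the 8 tested members, 1 had groups that did not overlap, where 25.7% of all tested genes had this. Because both values come from 1 library, the ratio of Rspo3 to a target gene does not depend on library scaling. It is not corrected for GC content, which is 44.1% for Rspo3 and 53.1% to 56.1% for Nkd1, Tbx3, Axin2 and Rnf43. Per 100 counts of Axin2 there were 45.0, 13.7 and 6.82 counts of Rspo3 in control F1 and 133, 70.5 and 57.7 in FR F1 libraries. Per 100 counts of Nkd1 there were 52.9, 21.2 and 8.96 against 123, 126 and 78.9. Per 100 counts of Rnf43 there were 9.78, 4.14 and 2.44 against 43.4, 51.8 and 31.6. In these pairs no FR F1 library overlapped the control F1 libraries, whereas Rspo3 over Tbx3 did overlap, at 12.2, 3.63 and 2.39 against 24.9, 19.9 and 10.1 per 100. Rspo3 was picked because it separated these libraries, so the ratios carry that separation over and add no support to it.

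Levels between genes were compared per kilobase of exonic length. In control F1 livers Lgr4 was highest, at 21.2 ± 6.0 CPM per kilobase (SD, n = 3), and its range did not meet that of the next gene. Tbx3 (10.8 ± 5.24) and Rnf43 (10.7 ± 4.23) followed and overlapped each other. Axin2 (3.96 ± 2.29), Nkd1 (3.51 ± 2.02) and Znrf3 (3.48 ± 0.906) overlapped as well. Lgr5, Rspo3, Wnt9b and Wnt2 formed an overlapping lowest group, with means from 0.774 to 1.06 CPM per kilobase. In FR F1 livers Rspo3 stood at 5.82 ± 2.26 CPM per kilobase, in the range of Rnf43 (6.56 ± 2.26) and Axin2 (3.83 ± 0.278), while Wnt9b was lowest at 0.723 ± 0.468.

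Markers of the cells that make Rspo3 and the Wnt ligands were higher in the same libraries. The 17 sinusoidal and pan-endothelial markers all had log2 fold changes above 0, and their median was 0.95 against 0.00 over all genes. Their summed level was 584 to 912 CPM in control F1 and 1177 to 1385 CPM in FR F1 libraries. The edgeR test called 0 of the 17, or 5 with the GC correction, and DESeq2 called 7 and limma-voom 1. Over all genes DESeq2 called 2.75% and limma-voom 0.791%. With the GC correction edgeR called 274 genes in all, against 109 (0.837%) without it. An unadjusted p under 0.05 was found for 13 of the 17 markers and for 17.9% of all tested genes, the background for each such count given here. Tek, the angiopoietin receptor gene, had 1.88 ± 0.33 (edgeR, adjusted p = 0.0504, and 0.0264 with the GC correction), the pan-endothelial gene Pecam1 had 0.93 ± 0.25, Gpr182, an endothelial receptor gene, had 1.31 (adjusted p = 0.0780, and 0.0242 with the GC correction), and the abundant scavenger receptor gene Stab2 had 0.05 ± 0.13. Tek passed without control replicate 1 (edgeR, adjusted p = 0.0153) and Gpr182 without control replicate 3 (0.0416). One marker, Lyve1, was at 0 in control replicate 2.

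Markers of central vein endothelium other than the members were mixed at lower counts. Their sum over 5 genes was 69.9 to 77.2 CPM in control F1 and 92.3 to 95.8 CPM in FR F1 libraries, with none at 0. The thrombomodulin gene Thbd had 1.35 ± 0.43, Fabp4, a lipid chaperone gene, 1.30 ± 0.37 and Kit, a receptor tyrosine kinase gene, 0.69 ± 0.37. The adhesion gene Selp, which made up most of the sum in control F1 (50.6 ± 5.26 CPM), had -0.17 ± 0.16, and the 4 tested had a median of 1.0. Without control replicate 1 Fabp4 had 1.79 (edgeR, adjusted p = 0.0277). The calls by edgeR, DESeq2 and limma-voom were 0 each, with 2 genes at an unadjusted p under 0.05. Of the 4 portal endothelial markers 3 were tested, and all 3 had a log2 fold change above 0. Efnb2, an ephrin ligand gene of arterial endothelium, had 1.22 ± 0.69 and Dll4, a Notch ligand gene, 0.58 ± 0.41. Of the 3, 0 were called by edgeR, DESeq2 or limma-voom or had an unadjusted p under 0.05. Efnb2 moved to 2.83 without control replicate 1 (edgeR, adjusted p = 0.0277) and to 0.79 without control replicate 2 or 3.

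Stellate cells and fibroblasts are a further source of Rspo3 in the liver. Each of their 15 markers had a log2 fold change above 0, and the median was 0.98. DESeq2 called 6 of them, limma-voom 2, and edgeR with the GC correction 3, at the backgrounds given above for these fits. An unadjusted p under 0.05 was found for 12 and groups that did not overlap for 9, where 25.7% of all tested genes had the latter. The main edgeR test called 2 as higher, where 0.392% of all tested genes were. The 2 were Colec10, a collectin gene, at 2.0 ± 0.24 (edgeR, adjusted p = 0.0201), and Pdgfra, a growth factor receptor gene, at 1.53 ± 0.26 (adjusted p = 0.0456). Limma-voom called Colec10 (adjusted p = 0.0232) but not Pdgfra (0.0505). With replicate number as a block in the fit, Pdgfra did not pass either (edgeR, adjusted p = 0.106). With the GC correction Colec10 had 1.46 (edgeR, adjusted p = 0.0197). The call of Pdgfra was lost without any 1 library other than control replicate 1 (edgeR, adjusted p 0.0512 to 0.190), and that of Colec10 without control replicate 2 (0.101), FR replicate 1 (0.146) or FR replicate 2 (0.126). The retinol esterification gene Lrat had 1.29 ± 0.43, or 0.64 without FR replicate 2, and the matrix gene Dcn 1.07 ± 0.20, the latter 0.45 with the GC correction and 1.22 without control replicate 1 (edgeR, adjusted p = 0.0220). The summed level was 413 to 639 CPM in control F1 and 942 to 1140.1 CPM in FR F1 libraries, with no marker at 0. In such bulk samples more cells of a type and more RNA per cell cannot be told apart.

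Rspo3 differed between the groups by more than the sums of these markers. It was picked for its difference, and abundant markers such as Stab2 (154.8 CPM in control F1) weigh most in the sums. The log2 fold changes of Colec10 (2.0), Hgf (1.98) and Tek (1.88) lay inside the Rspo3 interval of 1.59 to 3.45. Those of the other markers of both lists lay below it. Per 1000 CPM of summed endothelial markers it had 5.16, 5.41 and 2.52 CPM in control F1 and 20.7, 13.5 and 8.89 CPM in FR F1 libraries, a ratio of means of 3.29 with no overlap. Per 1000 CPM of stellate and fibroblast markers it had 6.90, 7.64 and 3.60 against 25, 13.9 and 13.1, a ratio of means of 2.86, again with no overlap. Wnt9b per 1000 CPM of endothelial markers went the other way, at 4.58, 6.95 and 6.31 against 2.7, 0.940 and 3.85, and the groups were apart. Wnt2 on that scale overlapped, at 2.87, 0 and 3.36 against 2.7, 6.58 and 5.04. These ratios were chosen after the data were seen and carry no test.

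**Figure D3:**
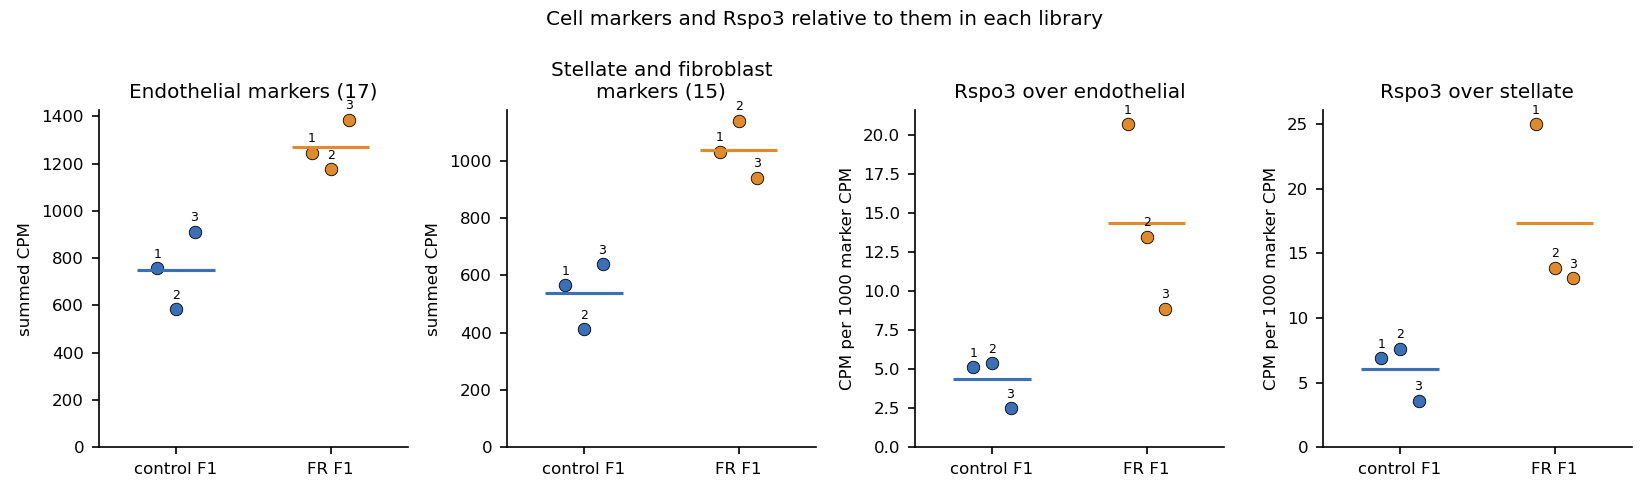
Summed CPM of 17 endothelial and 15 stellate cell and fibroblast markers in each library, and Rspo3 CPM per 1000 CPM of each sum, with replicate numbers beside the points, group means as lines and axes from 0. All 4 panels show FR F1 (orange) above control F1 (blue) without overlap.

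Other Wnt pathway genes mostly did not pass the test. Of 79 listed, 40 had enough counts and 28 had fewer than 10 counts over all libraries. Of the 40, 1 fell, where 0.445% of all tested genes were called lower, and their median log2 fold change was -0.08. Of the other 17 Wnt ligands 11 had fewer than 10 counts over all libraries, with 3 tested and 0 called by edgeR, DESeq2 or limma-voom, and 0 at an unadjusted p under 0.05. Wnt5a, a ligand gene of beta-catenin independent signalling, had 0.94 ± 0.54. Wnt5b, of the same class, had -0.37 ± 0.33 and a level of 6.30 ± 2.06 CPM per kilobase in control F1 and 4.87 ± 1.07 CPM per kilobase in FR F1 livers, above the means of Wnt2 and Wnt9b. Among R-spondins other than Rspo3, none had more than 7 counts in a library.

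The Wnt secretion gene Wls, which escorts Wnt proteins to the cell surface, had 6.50, 5.86 and 4.99 CPM in control F1 and 17.2, 10.3 and 9.44 CPM in FR F1 libraries. The groups were apart, and the log2 fold change of 1.09 ± 0.35 did not pass (edgeR, adjusted p = 0.181). Porcn, which encodes the enzyme that acylates Wnt proteins, had -0.45 ± 0.30. The Frizzled, LRP and related receptor genes, 10 tested, had a median of 0.03 and a range of -0.41 to 0.32. Fzd4 had -0.41 ± 0.20 and Fzd8 -0.32 ± 0.17, and edgeR, DESeq2 and limma-voom called 0 of the 10, with 0 at an unadjusted p under 0.05. The 16 intracellular transducer genes tested had a median of -0.04, with 0 called by the same tools and 3 at an unadjusted p under 0.05, near the background. Btrc, a gene of the ubiquitin ligase that recognises beta-catenin, had -0.61 ± 0.20, or -1.30 with the GC correction (edgeR, adjusted p = 0.127), and the kinase gene Gsk3a had -0.31 ± 0.11.

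Secreted and membrane Wnt inhibitors included a pair of low genes that were higher in FR F1 livers without passing. Dkk3, of the Dickkopf family, had 2.17, 3.16 and 4.99 CPM in control F1 and 11.2, 13.3 and 9.44 CPM in FR F1 libraries (log2 fold change 1.69 ± 0.38, edgeR adjusted p = 0.0922, and 0.0455 with the GC correction). Frzb, a secreted Frizzled-related gene, had 2.17, 0.901 and 1.53 against 5.98, 4.42 and 4.92 CPM (1.70 ± 0.45, adjusted p = 0.133). In both genes the groups were apart. Of the 16 inhibitors 4 were tested and 0 called by edgeR, DESeq2 or limma-voom, with 3 at an unadjusted p under 0.05. Besides Dkk3 and Frzb this held for Kremen1, which went the other way. It had -0.51 ± 0.21 (edgeR, adjusted p = 0.250), with every FR F1 library below every control F1 library. As with Rspo3, endothelial and stellate markers were higher in the same libraries, and their part in the values of Dkk3 and Frzb was not tested.

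Of the 7 tested general Wnt target genes outside the set, 1 fell, namely Ccnd1, where 0.445% of all tested genes were called lower. A log2 fold change above 0 was found for 2. Those above 0 were Bambi at 1.43 ± 0.38 and Cd44 at 1.41 ± 0.48. Both were higher in every FR F1 library without passing (edgeR, adjusted p = 0.134 and 0.201). An unadjusted p under 0.05 was found for 3 of the 7 and groups that did not overlap for 3, where 17.9% and 25.7% of all tested genes had these. Ccnd1, which encodes the G1 regulator cyclin D1, went from 71.6 ± 5.49 to 22.0 ± 1.87 CPM (SD, n = 3 each), with -1.70 ± 0.16 on the log2 scale (edgeR, adjusted p = 0.00711). Its adjusted p was 0.0732 without FR replicate 1 and 0.0672 without FR replicate 2. Its 76.8, 65.8 and 72.1 CPM in control F1 stood against 20.9, 21.0 and 24.2 CPM in FR F1 libraries. It shares 1100 of its 4709 exonic bases with a gene on the other strand. Notum, a Wnt-inactivating carboxylesterase gene also held in the inhibitor list, had 68.5, 117 and 155 against 101, 97.7 and 104 CPM, a pattern close to that of Axin2, with the FR F1 libraries inside the control range.

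Pericentral hepatocyte genes did not move as a block. Of 20 tested, 2 fell, 0 rose and 18 did not pass, with a median log2 fold change of -0.05. Over all tested genes 0.445% were called lower. An unadjusted p under 0.05 was found for 7 and groups that did not overlap for 8, where 25.7% of all tested genes had the latter. The sum was 6253 to 7061 CPM in control F1 and 5944 to 6073 CPM in FR F1 libraries. It includes Cyp2a5, whose mean went from 442 to 33.5 CPM. Glul, the glutamine synthetase gene of the hepatocytes around the central vein, had 492, 562 and 522 CPM in control F1 and 582, 563 and 553 CPM in FR F1 libraries (0.11 ± 0.09, 95% interval -0.10 to 0.31). Cyp2e1, a pericentral cytochrome P450 gene, had -0.01 ± 0.09, Cyp1a2, another, 0.10 ± 0.10 and the ornithine aminotransferase gene Oat -0.27 ± 0.11. Those that fell were the cytochrome P450 gene Cyp2a5, at -3.72 ± 0.26 (edgeR, adjusted p = 0.00237), and the sulfotransferase gene Sult5a1, at -1.38 ± 0.22 (adjusted p = 0.0404). The call of Sult5a1 was lost without control replicate 2 or any 1 FR replicate (edgeR, adjusted p 0.123 to 0.149). Reads of Cyp2a5 can be shared with close paralogs. Counts of Glul, Cyp2e1 and Cyp1a2 reached 0.557, 0.969 and 0.735 per base pair of transcript, and those of the albumin gene Alb, a leading liver transcript, only 1.14. Whether the upstream counting limits such abundant genes was not tested, and the members stayed at or below 0.0785.

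Of 16 periportal genes, 1 fell, the aldehyde dehydrogenase gene Aldh1b1 at -1.29 ± 0.16 (edgeR, adjusted p = 0.0226), and the median was -0.25. DESeq2 called 2 of the 16, 1 had a log2 fold change above 0, 7 had an unadjusted p under 0.05 and 7 had groups that did not overlap. Over all genes DESeq2 called 2.75%, edgeR called 0.445% of those tested as lower, and 25.7% of those tested did not overlap. Their sum was 6887 to 8704 CPM in control F1 and 5794 to 6346 CPM in FR F1 libraries. The call of Aldh1b1 was lost without FR replicate 1 (0.120), 2 (0.132) or 3 (0.0908). Kupffer cell markers had a median of 0.44 over 10 genes and a sum of 336 to 651 CPM in control F1 and 432 to 842 CPM in FR F1 libraries. All 10 had a log2 fold change above 0, as the endothelial and stellate markers did, where 50.0% of all tested genes had this. The macrophage receptor genes Adgre1 and Vsig4 had 1.12 and 0.88. Of 6 cholangiocyte markers 2 were tested, Sox9, a biliary transcription factor gene, at 0.96 and Spp1, the osteopontin gene, at -0.17, and neither passed. With the GC correction Spp1 had -0.52 (edgeR, adjusted p = 0.639). Hepatocyte markers had a median of -0.20 over the 9 of 10 symbols found, with Hnf4a, a hepatocyte identity factor gene, at -0.35 ± 0.10 and the albumin gene Alb at -0.32 ± 0.11. For the Kupffer and the hepatocyte list, edgeR, DESeq2 and limma-voom called 0 genes, with 2 in each list at an unadjusted p under 0.05. No Kupffer or hepatocyte marker was at 0 in a library, while 1 cholangiocyte marker was. The hepatocyte markers summed to 4878 to 6236 CPM in control F1 and 5165 to 5465 CPM in FR F1 libraries.

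**Figure D4:**
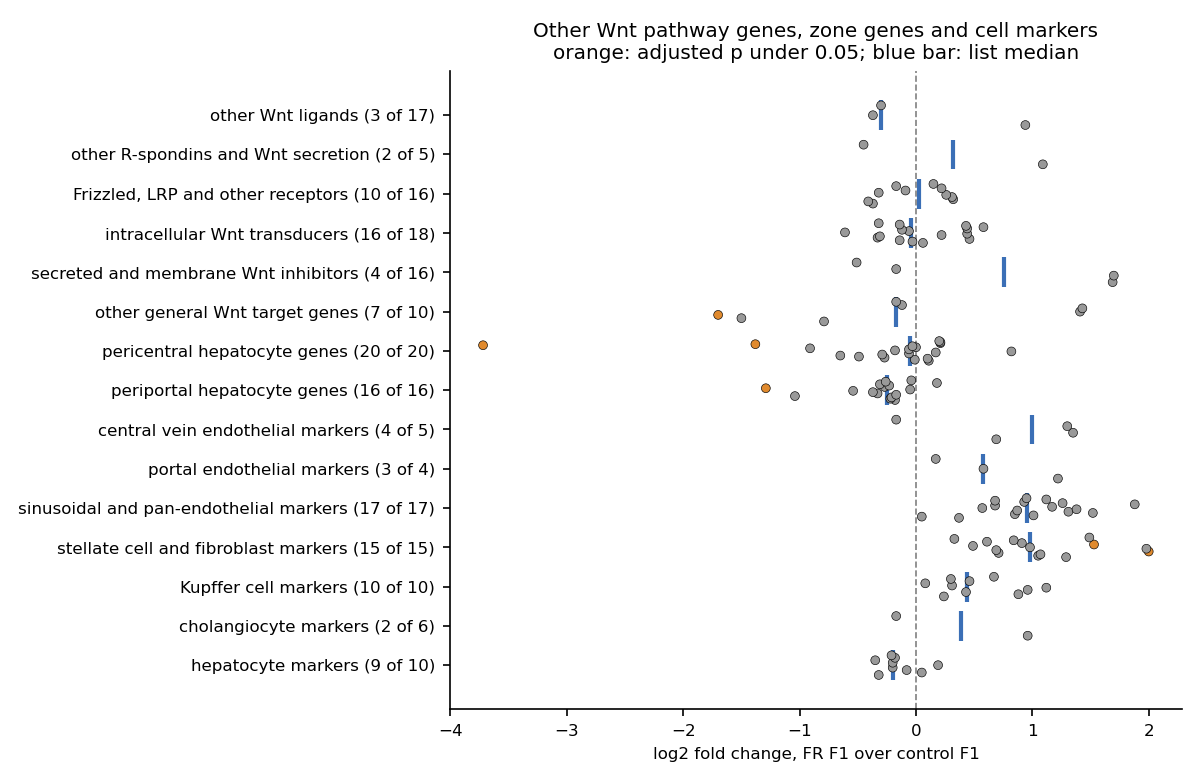
Log2 fold change, FR F1 over control F1, of single genes in 15 lists, with orange points for adjusted p under 0.05, blue bars for list medians and the number tested of those listed beside each name. Endothelial and stellate lists lie to the right of 0, with medians of 0.95 and 0.98, and the pericentral list has a median of -0.05.

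Axin2, Nkd1, Rnf43 and Tbx3 varied more among the control F1 than among the FR F1 libraries. Control replicate 1 was the lowest control library for 6 of the 8 tested members, namely Lgr5, Rnf43, Znrf3, Axin2, Tbx3 and Nkd1, where 37.9% of all tested genes had it lowest. Between control replicates 3 and 1 the level differed 3.89-fold for Axin2, 3.49-fold for Nkd1, 3.0-fold for Tbx3 and 2.37-fold for Rnf43. Rspo3 and Lgr4 ran the opposite way, with control replicate 3 lowest, at 0.590 and 0.554 times control replicate 1. Control replicate 1 was also lowest for 12 of 20 pericentral, 3 of 7 other general Wnt target and 0 of 16 periportal genes. The median log2 difference between control replicates 3 and 1 was 1.21 for the members and 0.04 over all tested genes. It was only 0.12 for the pericentral and -0.09 for the other general Wnt target genes.

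GC content differed along with this spread. Axin2, Nkd1 and Tbx3 have 53.1% to 54.6% GC, and the GC bin that holds them had a median log2 difference of 0.25 between these control libraries, against 1.57 to 1.90 for the 3 genes. Lgr5, with 44.7% GC, differed by 1.18, where the median of its bin was -0.14. Rspo3 at -0.65 and Lgr4 at -0.85 belong to that same bin. Endothelial markers were lowest in control replicate 2, not in control replicate 1. The spread among the controls widens the intervals of the target genes, and it was noticed in the data.

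**Figure D5:**
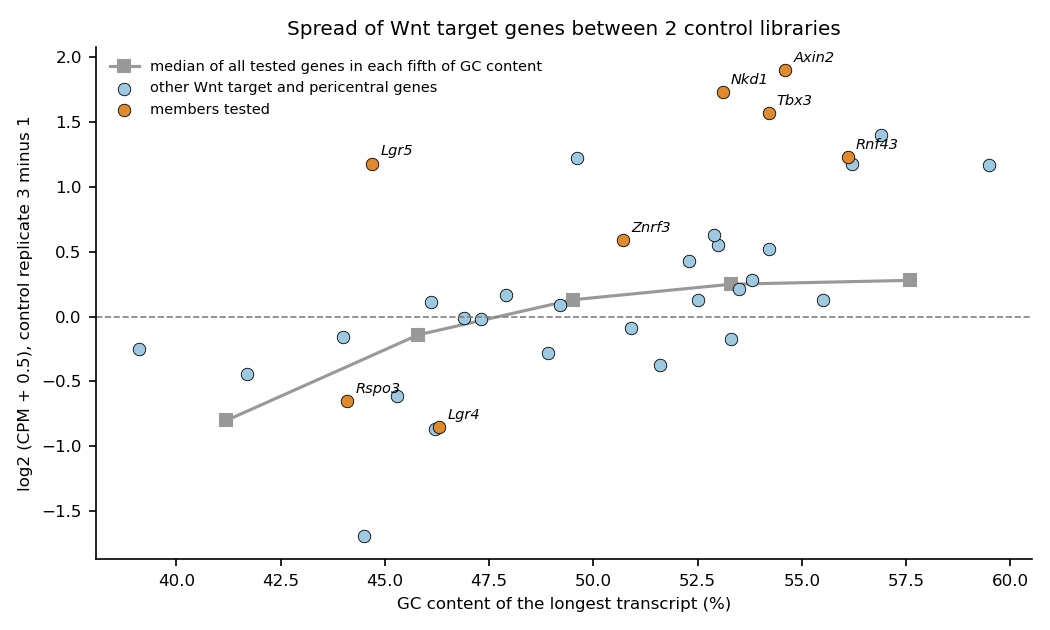
Difference in log2(CPM + 0.5) between control replicates 3 and 1 against GC content of the longest transcript for the 8 tested members (orange, named) and 27 other Wnt target and pericentral genes (light blue), with the median of all tested genes in each of 5 GC bins (grey). Axin2 at 1.90, Nkd1 at 1.73 and Tbx3 at 1.57 lie above the grey line, and Rspo3 at -0.65 lies below it.

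The genes whose levels followed Rspo3 most closely over the 6 libraries were picked by Pearson r of log2(CPM + 0.5) among 11427 genes with a mean of at least 1 CPM. They were the kinase gene Map3k8 (r = 0.996), the phosphorylase kinase subunit gene Phkb (0.991), the kinase gene Lrrk2 (0.991), Rchy1, a ubiquitin ligase gene (0.991), and Slc38a6, a transporter gene (0.990). All 5 had a Spearman rho of 1.0, as did 100 genes in all, so the order among them carries little. The 6 points fall into the 2 groups, and these r describe that split together with the order within it. Map3k8 had 6.07, 5.41 and 4.60 CPM in control F1 and 13.8, 11.8 and 9.44 CPM in FR F1 libraries, in the same order as Rspo3.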

How the data were processed

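Polyadenylated liver RNA was sequenced as 6 libraries, grouped by their titles. Unnormalised counts, 1 whole number per gene and library, came in a single table that the authors deposited. Per the submitters' processing notes, STAR, StringTie, HTSeq and DESeq2 and the build mm10 were used, with no versions or roles given; for annotation release, strand setting and duplicate removal the sources used here give nothing. Of 53715 gene IDs, 53620 matched a GENCODE M21 symbol. The members, lists and tests were chosen with earlier results of these data known.

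The test was that of edgeR 4.0.16, run in R 4.3.3 (filterByExpr with a minimum count of 10 and total of 15, TMM, quasi-likelihood F test, two-sided, Benjamini-Hochberg over 13022 genes, threshold 0.05). SE is the absolute log2 fold change over the square root of F. Named genes were the members, the 5 most like Rspo3, up to 4 called genes per list or else the 2 of smallest p, and 10 fixed by name. Others with values (Notum, Lyve1, Selp, Bambi, Cd44, Hgf, Kremen1) were chosen after their values were seen. Data were also simulated with the same dispersion (0.05) for every gene and no GC effect. There the fit recovered 52 of 100 genes changed 2-fold and 97 of 100 changed 4-fold among 13022, with 5 false calls. These figures do not carry over to genes with more spread, such as Axin2 (coefficient of variation of 57.7% in control F1). Replicates differed beyond counting noise (chi-square of 4.01 to 13.4 per degree of freedom). Alternatives were DESeq2 1.42.0, limma-voom 3.58.1, other scalings and filters, a replicate block, each library left out and, added after seeing the data, a GC correction with 10 bins and scaling to markers.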

Additional observations from a re-analysis of the deposited data

How the results depend on the processing

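The count of changed genes was 109, and it was 423 with DESeq2, 1251 with no filter on low counts, 274 with the GC correction chosen after seeing the data, and 7 (without FR replicate 1) to 651 (without control replicate 1) when each library was left out. The count of members called, 1, was 0 with limma-voom (Rspo3 adjusted p = 0.0684), 2 with no filter, and 0 to 1 with each library left out, where 1 of the 6 fits called Rspo3. Other Wnt pathway genes called, 1, were 5 with no filter, 2 with the GC correction and 0 to 2 with each library left out. Zone and cell type markers called, 5, were 17 with DESeq2, 31 with no filter, 11 with the GC correction and 1 to 19 with each library left out. Whether the control and FR replicate numbers pair the samples is unknown, and the main fit treated them as unpaired. Deviations of same-numbered libraries from their group means correlated at r of -0.017, 0.108 and 0.153 across genes. Control replicates 2 and 3 correlated best with the FR replicate of the same number, and control replicate 1 with FR replicate 2 (0.155). Correlations this weak cannot decide the question. With the replicate block 21 genes, 0 members and 3 markers were called, and Rspo3 had 2.49 (edgeR, adjusted p = 0.0740).

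Of 50 log2 fold changes followed, 43 kept their direction in every alternative that gave a value, and 24 of 743 alternative values reversed. Axin2 was 0.13 with limma-voom, 0.10 with the replicate block, 0.12 with the GC correction and -0.43 to 0.41 with each library left out. Znrf3 was 0.00 with a minimum count of 30, 0.07 with the GC correction and -0.23 to 0.14 with a library left out. Nkd1 ranged from -0.32 to 0.55, Lgr4 from -0.11 to 0.29 and Stab2 from -0.04 to 0.12 with a library left out. Spp1 was 0.02 with limma-voom, 0.03 with the replicate block and -0.49 to 0.65 with a library left out. Cyp2e1 was 0.00 with library totals, 0.02 with a minimum count of 30 and -0.05 to 0.05 with a library left out. The cause of these changes was not tested. Rspo3 moved to 1.72 and 1.52 when scaled to summed endothelial or stellate markers. Depth limits the ligand genes, with 13 to 47 counts per group for Wnt2 and Wnt9b and 22 for Rspo3 in control F1.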
